A study of Drosophila melanogaster with 16 samples.

Results

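The proteasome subunit genes were taken as every gene of the count table whose current FlyBase symbol starts with Prosalpha, Prosbeta, Rpn or Rpt followed by a digit, which gave 47 of 15682 genes. Of these, 32 are general subunits, made in all tissues, and 15 are testis paralogues, marked by a T or R in the symbol. The general subunits were split into the 14 genes of the core particle (7 of the alpha ring and 7 of the beta ring), the 10 genes of the base and the 8 genes of the lid. In the annotation used for symbols, the general subunits lie on all major chromosome arms, with 4 genes on X, 4 on 2L, 10 on 2R, 5 on 3L and 9 on 3R. A further gene that the rule matches by symbol, Prosalpha4T1, was not analysed here. All 47 genes passed the filter on low counts and were tested. The expression data are RNA sequencing of pooled, dissected body-wall muscle from ras1G12V;csk-/- larvae of Drosophila melanogaster, labelled Ras/Src, in 16 libraries. These larvae carry GFP-labelled tumours of the eye epithelium, made with the MARCM clone system and an eyeless-driven FLP recombinase, in which a UAS transgene drives the activated oncogene ras1G12V and csk, the inhibitor of Src, is lost through the allele csk Q156Stop. The recombinase acts in the eye and not in muscle. All groups share this genotype. CD animals were raised on a control diet with 0.15 M sucrose and dissected at day 8 after egg laying. The other animals were fed HSD, a high-sugar diet of 1 M sucrose, and dissected at an Early stage (day 12), a Mid stage (day 14) and a Late stage (day 16) of muscle wasting, with 4 libraries in each of the 4 groups. These days are those of the labels, and the methods for phalloidin staining name a different day for the early stage. No CD muscle of a later day was used here, so diet cannot be told apart from age in any comparison of an HSD stage with CD, and tumour-free larvae were not analysed here.

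The proteasome is the large protease that degrades proteins marked with chains of ubiquitin. Its core particle is a barrel of stacked rings: the outer alpha rings gate the entry, and the inner beta rings carry the active sites that cut the substrate. A regulatory particle caps the barrel. Its base holds a ring of ATPases that unfold the substrate and thread it into the core, together with scaffold proteins and ubiquitin receptors, and its lid holds the enzyme that removes the ubiquitin chain. The subunits are needed in fixed proportions, and in many species their genes are controlled together; in Drosophila, the transcription factor Cap-n-collar raises them when proteasome activity is impaired. In skeletal muscle of mammals, the ubiquitin-proteasome system is known as a main route by which muscle proteins are broken down during wasting.

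Counts on genes came to between 9666672 (CD 3) and 28698585 (Late 3) per library. Levels are given as CPM, the counts of a gene relative to the total of its library after TMM scaling of that total (counts per 1 M). The labelled tissue was checked against a list of muscle genes such as Mhc, of which 17 of 20 were matched and all 17 were detected. Their summed level was 29454 to 65969.6 CPM over the CD libraries, 75410.0 to 196032 at Early, 21347 to 51564 at Mid and 10796 to 24082 at Late, and Early 1 was the highest library. A list of 14 epidermis and cuticle genes, from the tissue that lies next to the muscle, had a summed level of 34134 to 64348 CPM in CD, 62201 to 164053 at Early, 10888 to 45855 at Mid and 4738 to 13675 at Late. Gut genes, a list of 18, summed to 138 to 1029 CPM in CD, 20.1 to 2046 at Early, 6.19 to 59.7 at Mid and 8.87 to 201 at Late. The muscle and cuticle lists were highest at Early and lowest at Late. Against CD, 10 of 17 muscle genes were called higher at Early and 9 lower at Late. Of 13 epidermis genes tested, 3 were called higher at Early and 5 lower at Late. Of other lists, 4 of 9 haemocyte genes were called higher at Late, 3 of 7 salivary gland genes lower at Late and 3 of 6 tracheal genes higher at Early. The shares of all genes tested were 6.44% higher at Early, and 14% higher and 7.7% lower at Late. The part of any of these lists in the results on the proteasome was not tested. In bulk tissue, fewer cells of a type and less RNA per cell cannot be told apart. The 3 comparisons of an HSD stage with CD share the same CD libraries. The labels call the libraries replicates and the RNA of each came from pooled tissue, but nothing says how many larvae a pool held, and p-values measure only the spread between these libraries.

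The general subunits were abundant transcripts, with mean levels from 178 to 626 CPM per kilobase of exon in CD. Per kilobase of exon, their median level was 419 CPM in CD, 232 at Early, 264 at Mid and, for Late, 175. In CD the median was 564 CPM per kilobase over the alpha ring, 582 over the beta ring, 396 over the base and 336 over the lid. The medians of both rings were above those of the base and lid, while single genes of the rings and of the regulatory particle overlapped. At Late the same medians were 233, 242, 154 and 144 CPM per kilobase. In CD the highest genes were Prosalpha6 at 626 ± 79.4 CPM per kilobase (mean ± SD, n = 4) and Prosbeta5 at 626 ± 106, which do not differ beyond their spread. The lowest was Prosalpha1 at 178 ± 38.8, below the base scaffolds Rpn1 at 249 ± 14.5 and Rpn2 at 252 ± 37.7. How reads divide between Prosalpha1 and its close copy Prosalpha1R is uncertain. Over all groups the highest mean belonged to Prosalpha2, at 425 CPM per kilobase, and the lowest to Prosalpha1, at 119. The order of the 32 genes was largely kept, with a Spearman correlation of their per-kilobase levels of 0.939 between CD and Late and 0.964 between CD and Early. This correlation is across genes of the same libraries, and exon lengths enter both sides, so it is a description. Exon lengths came from a later genome annotation than the counts.

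**Figure D1:**
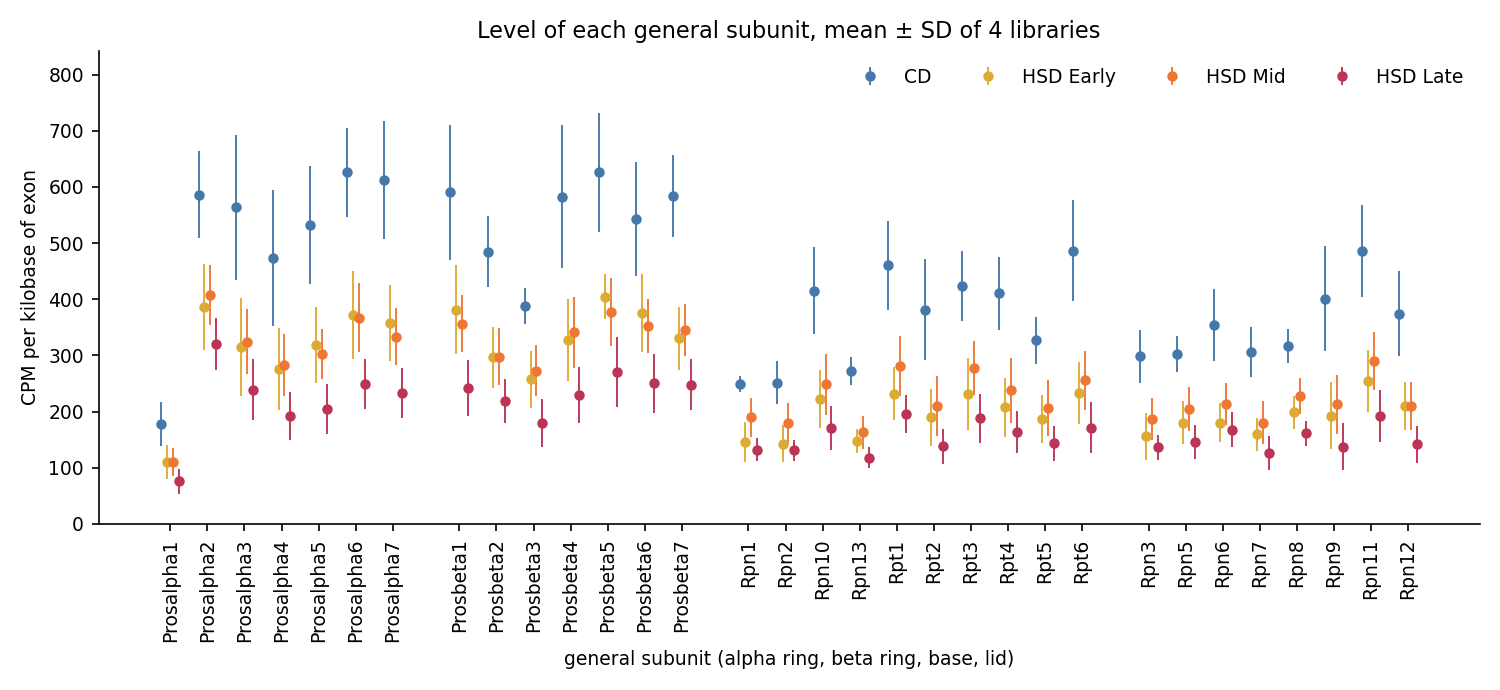
Mean level of each general subunit in CPM per kilobase of exon (vertical axis, from 0; mean ± SD of 4 libraries) in CD, Early, Mid and Late, with genes ordered within the alpha ring, beta ring, base and lid. Prosalpha1 lies below the other alpha ring genes in every group (178 in CD and 76.1 at Late), and the Late points lie lowest for all 32 genes.

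Transcripts of the general subunits were less abundant at every HSD stage than in CD. Their summed level was 16248, 19289.8, 21192 and 15889 CPM in CD 1 to 4, 7263, 11907, 10321 and 11636 in Early 1 to 4, 9566, 13184, 12571 and 9339 in Mid 1 to 4 and 8695, 5875, 7422 and 9333 in Late 1 to 4. All 12 HSD libraries were below all 4 CD libraries, Late 2 was the lowest and Mid 2 the highest among them. The group means were 18155 ± 2535 CPM in CD, 10282 ± 2128 at Early, 11165 ± 1996 at Mid and, for Late, 7831 ± 1527 (SD, n = 4). A level that weights genes equally, the mean over the 32 genes of log2(CPM + 0.5) minus each gene's CD mean, was −0.16, 0.09, 0.24 and −0.18 in CD 1 to 4. It was −1.30, −0.59, −0.80 and −0.63 in Early 1 to 4, −0.91, −0.46, −0.52 and −0.96 in Mid 1 to 4 and −1.07, −1.63, −1.29 and −0.95 in Late 1 to 4. Early 1, at −1.30, lay within the range of Late, while the other 3 Early libraries lay above all Late libraries.

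**Figure D2:**
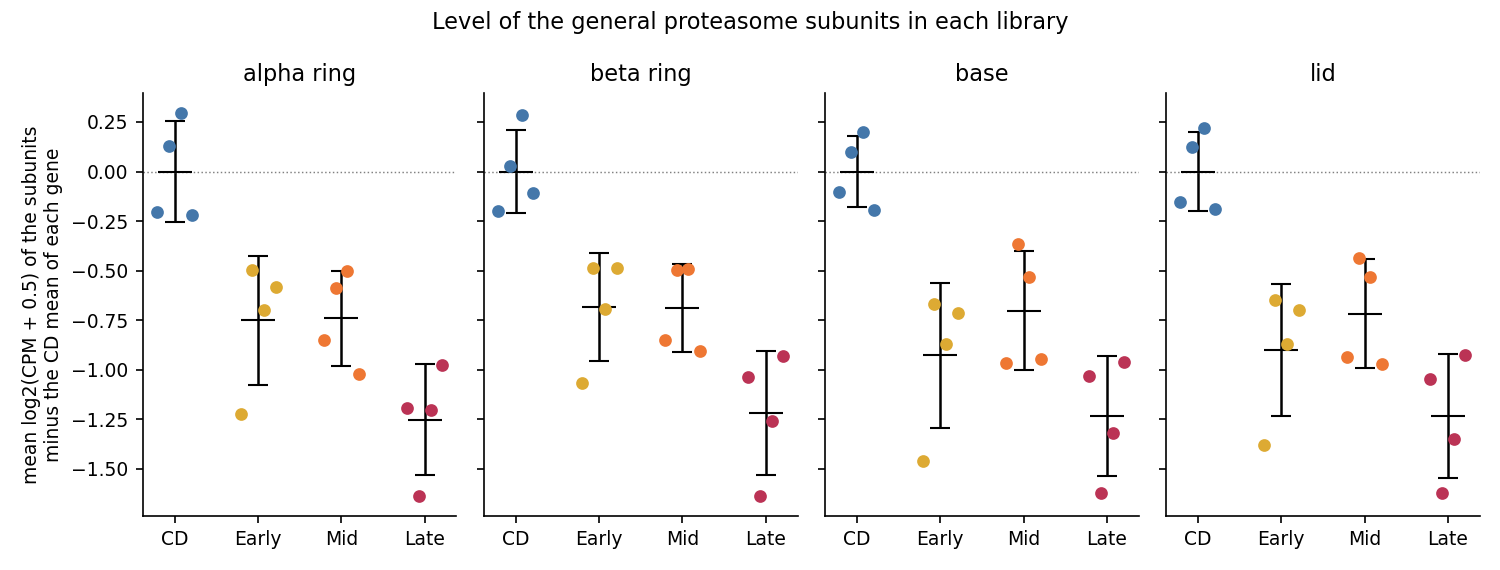
Mean log2 level relative to CD of the alpha ring, beta ring, base and lid genes in each of the 16 libraries (points), with the group mean and SD as bars. All HSD points lie below the CD points, and the group means over all 32 genes are −0.83 at Early, −0.71 at Mid and, for Late, −1.23.

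Gene by gene, at Late all 32 general subunits fell relative to CD (edgeR quasi-likelihood test, Benjamini-Hochberg adjusted p from 3.79e-04 for Rpn13 to 0.00415 for Rpn2). Over all 11607 genes tested, 7.7% were called lower and 14% higher in this comparison at the same threshold, an adjusted p-value under 0.05. The median log2 fold change of the 32 genes was −1.24, a median fold of 0.424 of CD, against −0.08 over all genes. It ran from −1.54 (Rpn9) to −0.87 (Prosalpha2). All 4 Late libraries were below all 4 CD libraries for 32 of 32 genes, against 8.99% of all genes tested. At Early, 27 of 32 fell, against 2.7% of all genes called lower and 6.44% called higher. The median log2 fold change was −0.82, against −0.01 over all genes, and the groups did not overlap for 32 genes, against 5.38% of all genes. Those that missed the threshold were Prosalpha1, Prosalpha4, Prosbeta1, Prosbeta3 and Prosbeta6, all of the core particle in edgeR, with log2 fold changes of −0.68, −0.78, −0.63, −0.60 and −0.53 and adjusted p-values between 0.0552 and 0.105. DESeq2 called all 32 at Early, the 14 core particle genes included. At Mid, 15 of 32 fell, against 1.95% of all genes called lower and 4.37% higher. The median log2 fold change there was −0.73, against −0.06 over all genes. The groups did not overlap for 30 genes, against 6.27% of all genes, the exceptions being Prosalpha4 and Rpn2. The counts at Early and Mid rested on single libraries: 7 genes were called at Early without CD 2 or without Early 1, 9 without CD 3 and 12 without Early 3, while at Mid the count was 0 without any one of CD 2, CD 3, Mid 1 or Mid 4, 8 without CD 4, 4 without Mid 3, 6 without Late 1 or Late 3 and 7 without Late 2 or Late 4, although all 32 log2 fold changes stayed negative in each of these fits. With only the 8 libraries compared in the fit, 7 were called at Early and 1 at Mid, and DESeq2 called 31 at Mid, whereas the count at Late was 32 in every alternative run.

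The alpha ring, which forms the gate of the core, fell as a whole at Late (7 of 7), with 5 of 7 called at Early and 3 of 7 at Mid. Of all genes tested, 7.7% were called lower at Late, 2.7% at Early and 1.95% at Mid. DESeq2 called all 14 core particle genes at Early and at Mid, so the partial counts depended on the method. Prosalpha7 (FBgn0023175) was at 493, 642, 718 and 538 CPM in CD 1 to 4, 260.3, 403, 335 and 396 in Early 1 to 4, 296, 360.2, 374 and 272 in Mid 1 to 4 and 258, 170.4, 217 and 264 in Late 1 to 4. Every HSD library lay below every CD library, and Mid 1 to 4 spanned 272 to 374 CPM. It fell at Late (log2 fold change −1.39, SE 0.19, edgeR adjusted p = 3.93e-04), at Early (log2 fold change −0.78, SE 0.19, edgeR adjusted p = 0.0204) and at Mid (log2 fold change −0.88, SE 0.19, edgeR adjusted p = 0.0180). Prosalpha6 (FBgn0250843), in CD the highest alpha ring gene per kilobase, was at 582, 696, 776 and 625 CPM in CD 1 to 4, 291, 473, 372 and 457 in Early 1 to 4, 337, 441, 458 and 335 in Mid 1 to 4 and 285, 207, 253 and 319 in Late 1 to 4. Its CD libraries were again above all others, and it fell by 1.33 on the log2 scale at Late (SE 0.19, edgeR adjusted p = 4.70e-04). Prosalpha2 (FBgn0086134), the gene with the highest level per kilobase over all groups, was at 478, 528, 642 and 510.1 CPM in CD 1 to 4, 251, 404, 379 and 386 in Early 1 to 4, 351, 407, 423 and 319 in Mid 1 to 4 and 305, 233, 326 and 315 in Late 1 to 4. It had the smallest change of the 32 at Late (log2 fold change −0.87, SE 0.17), and its value was −0.60 at Early and −0.52 at Mid, where it was not called (edgeR adjusted p = 0.0726). Prosalpha1 (FBgn0263121), the lowest gene per kilobase, was at 149.5, 175, 225 and 142 CPM in CD 1 to 4, 84.5, 134, 132 and 79.6 in Early 1 to 4, 117, 114, 125 and 70.7 in Mid 1 to 4 and 52.7, 57.7, 94.5 and 90.1 in Late 1 to 4. It fell at Late (log2 fold change −1.23, SE 0.25, edgeR adjusted p = 0.00375). A close copy of this gene, Prosalpha1R, lies on the same chromosome arm, and the division of reads between the pair is uncertain.

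Prosalpha3, whose yeast counterpart anchors the closed gate, had log2 fold changes of −0.84 (Early), −0.80 (Mid) and −1.24 (Late), of which that at Mid did not pass. For Prosalpha4 the mean level was 556 ± 142 CPM in CD (SD, n = 4), 324 ± 85.2 at Early, 332 ± 64.6 at Mid and, for Late, 226 ± 50.3, and only the Late change passed (−1.30). At Mid its highest library reached 410.5 CPM, above the lowest CD library at 404. Prosalpha5 fell at all stages, with log2 fold changes of −0.74 (Early), −0.81 (Mid) and −1.38 (Late). It went from 503 ± 99.0 CPM in CD to 193 ± 41.8 at Late.

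In the beta ring, 3 subunits carry the active sites: Prosbeta1 the caspase-like, Prosbeta2 the trypsin-like and Prosbeta5 the chymotrypsin-like site. All 3 fell at Late and at Mid, against 7.7% and 1.95% of all genes called lower. Prosbeta5 (FBgn0029134) was at 713 ± 120.5 CPM in CD, 461 ± 45.9 at Early, 429.6 ± 69.3 at Mid and, for Late, 308 ± 71.3, with log2 fold changes of −0.63 (Early), −0.73 (Mid) and −1.21 (Late). Prosbeta2 was at 501 ± 65.8 CPM in CD and 226 ± 39.8 at Late, with log2 fold changes of −0.71 (Early), −0.70 (Mid) and −1.15 (Late). Prosbeta1 (FBgn0010590) was at 397, 521, 636 and 458 CPM in CD 1 to 4, 231, 359.6, 324 and 385 in Early 1 to 4, 268, 331, 350.4 and 266 in Mid 1 to 4 and 231, 158, 185 and 252 in Late 1 to 4. Early 2 to 4 held more than any Late library, and Early 1 lay within the range of Late. Its change was −0.63 at Early (edgeR adjusted p = 0.0604, not called), −0.73 at Mid (adjusted p = 0.0434) and −1.28 at Late (SE 0.20, adjusted p = 7.84e-04).

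The other 4 beta ring genes, which have no active site, complete the ring. Prosbeta7 (FBgn0250746), the beta ring gene with the lowest p-value at each stage, was at 618, 739, 819.6 and 663 CPM in CD 1 to 4, 311, 473, 393 and 428 in Early 1 to 4, 389, 465, 467 and 354 in Mid 1 to 4 and 316, 221, 322 and 346 in Late 1 to 4. The CD libraries were the 4 highest, and Late 2 was the lowest of all. Prosbeta7 fell at Early (log2 fold change −0.82, SE 0.17, edgeR adjusted p = 0.0115), at Mid (log2 fold change −0.76, SE 0.17, edgeR adjusted p = 0.0222) and at Late (log2 fold change −1.24, SE 0.17, edgeR adjusted p = 4.58e-04). Prosbeta4 fell as well at all stages, with log2 fold changes of −0.83 (Early), −0.77 (Mid) and −1.34 (Late). Prosbeta3 had values of −0.60 (Early), −0.51 (Mid) and −1.12 (Late), and Prosbeta6 of −0.53 (Early), −0.63 (Mid) and −1.12 (Late); for both, only the Late change passed the test. At Early the beta ring thus had the smallest median of the 4 classes (−0.63, 4 of 7 called), and at Late its median was −1.21 with 7 of 7 called. Of all genes tested, 2.7% were called lower at Early and 7.7% at Late, and DESeq2 called the whole beta ring at Early.

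All 10 base genes fell at Early and at Late, and 3 of 10 (Rpt1, Rpt6 and Rpn13) at Mid. Of all genes tested, 2.7% were called lower at Early, 7.7% at Late and 1.95% at Mid. At Mid, DESeq2 called 17 of the 18 base and lid genes. The class median log2 fold change was −0.89 at Early, −0.72 at Mid and, for Late, −1.22. Rpt1 (FBgn0028687), 1 of the 6 ATPases that pull the substrate into the core, was at 604, 793, 810.4 and 582 CPM in CD 1 to 4, 248, 411, 364 and 383 in Early 1 to 4, 355, 520.0, 467 and 360.1 in Mid 1 to 4 and 327, 229.7, 284 and 344 in Late 1 to 4. It was at its lowest in Early 1 and Late 2, and no HSD library reached the CD range. Rpt1 fell at Early (log2 fold change −0.99, SE 0.20, edgeR adjusted p = 0.00978), at Mid (−0.71, adjusted p = 0.0449) and at Late (−1.24, SE 0.20, adjusted p = 9.07e-04). Rpt6, an ATPase next to Rpt3 in the ring of yeast and human proteasomes, had the largest fall of the base at Late, with log2 fold changes of −1.06 (Early), −0.93 (Mid) and −1.51 (Late). Its exons share 182 of 1404 bases with CG1801 on the other strand, which held 854 counts over all libraries. Rpt2, Rpt3 and Rpt5 carry tails that dock into the alpha ring of the core in yeast and mammals. For Rpt2 the changes were −1.0 (Early), −0.86 (Mid) and −1.47 (Late), for Rpt3 −0.87 (Early), −0.61 (Mid) and −1.17 (Late) and for Rpt5 −0.81 (Early), −0.66 (Mid) and −1.19 (Late); in each the Early and Late values passed and the Mid value did not. Rpt4 showed the same calls, with log2 fold changes of −0.98 (Early), −0.79 (Mid) and −1.32 (Late), and went from 601 ± 94.2 CPM in CD to 241 ± 54.9 at Late.

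The base also holds the ubiquitin receptors Rpn10 and Rpn13. Rpn13 (FBgn0033886), which in human cells also docks the deubiquitinase UCHL5, was at 403, 463, 503 and 447 CPM in CD 1 to 4, 207, 280.5, 227 and 274 in Early 1 to 4, 236, 335, 291 and 227 in Mid 1 to 4 and 217, 155, 190.4 and 224 in Late 1 to 4. Its CD libraries lay within 403 to 503 CPM, and the highest library of another stage, of Mid, held 335. Rpn13 had the lowest p-value of the general subunits at Early (log2 fold change −0.88, SE 0.16, edgeR adjusted p = 0.00744) and at Late (log2 fold change −1.21, SE 0.16, edgeR adjusted p = 3.79e-04), and also fell at Mid (−0.74, adjusted p = 0.0202). Rpn10 was at 590.3 ± 109.5 CPM in CD, 317 ± 73.8 at Early, 353 ± 77.6 at Mid and, for Late, 243 ± 55.1. Its Early (−0.90) and Late (−1.28) changes passed, that at Mid (−0.74) did not. The large scaffolds Rpn1 and Rpn2, to which receptors and shuttle factors bind, had the smallest falls of the base at Late. Rpn1 had log2 fold changes of −0.77 (Early), −0.39 (Mid) and −0.92 (Late) and Rpn2 of −0.81 (Early), −0.49 (Mid) and −0.95 (Late). Rpn2 was at 858 ± 129 CPM in CD and 609.7 ± 124 at Mid, where the libraries overlapped.

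All 8 lid genes fell at Early and at Late, and 4 of 8 (Rpn6, Rpn7, Rpn11 and Rpn12) at Mid. The shares of all genes called lower were 2.7% at Early, 7.7% at Late and 1.95% at Mid. The count at Mid depended on the method, as for the base. The class median was −0.94 at Early, −0.74 at Mid and, for Late, −1.21. Rpn11, the metalloprotease that cuts the ubiquitin chain from the substrate, had the highest level of the lid per kilobase in every group, from 485 CPM per kilobase in CD to 192 at Late. It went from 586 ± 98.4 CPM in CD to 307 ± 66.9 at Early, 350.2 ± 62.4 at Mid and, for Late, 232 ± 56.1, and its log2 fold changes of −0.93 (Early), −0.74 (Mid) and −1.34 (Late) all passed. Rpn8, the inactive partner of Rpn11, had changes of −0.67 (Early), −0.48 (Mid) and −0.98 (Late), of which that at Mid did not pass. Rpn6 (FBgn0028689), which in yeast holds the lid against the core, was at 632, 833, 741 and 550.4 CPM in CD 1 to 4, 250.4, 402, 361 and 389 in Early 1 to 4, 355, 508, 441 and 361 in Mid 1 to 4 and 372, 253, 299 and 379 in Late 1 to 4. The Early libraries overlapped with the Late libraries and not with CD. Rpn6 fell at Early (log2 fold change −0.97, SE 0.20, edgeR adjusted p = 0.00991) and at Late (log2 fold change −1.08, SE 0.20, edgeR adjusted p = 0.00173). Rpn12 (FBgn0028693), the last subunit to join the lid in yeast, was at 288, 358, 470.1 and 373 CPM in CD 1 to 4, 161, 245, 187 and 244 in Early 1 to 4, 176, 245, 247 and 167 in Mid 1 to 4 and 150.4, 107, 124 and 181 in Late 1 to 4. Here the Late libraries, up to 181 CPM, lay far below CD, from 288 CPM, and the fall was −1.40 at Late (SE 0.21, adjusted p = 6.68e-04) and −0.83 at Mid (adjusted p = 0.0328).

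The other lid genes, Rpn3, Rpn5, Rpn7 and Rpn9, encode scaffold subunits of the horseshoe that frames the lid. Rpn7 had log2 fold changes of −0.94 (Early), −0.77 (Mid) and −1.28 (Late), all called. For Rpn3 they were −0.94 (Early), −0.68 (Mid) and −1.13 (Late) and for Rpn5 −0.75 (Early), −0.56 (Mid) and −1.05 (Late), with the Mid value not called in either gene. Rpn9 had the largest fall of all general subunits at Late (log2 fold change −1.54, SE 0.28, edgeR adjusted p = 0.00181), from 673 ± 158 CPM in CD to 231 ± 71.3. Its exons share 125 of 1679 bases with CG10365 on the other strand. The library kit marks strand, but the strand setting of the counting is not given in the sources used here, so how far reads of this neighbour enter the counts of Rpn9 was not tested.

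**Figure D3:**
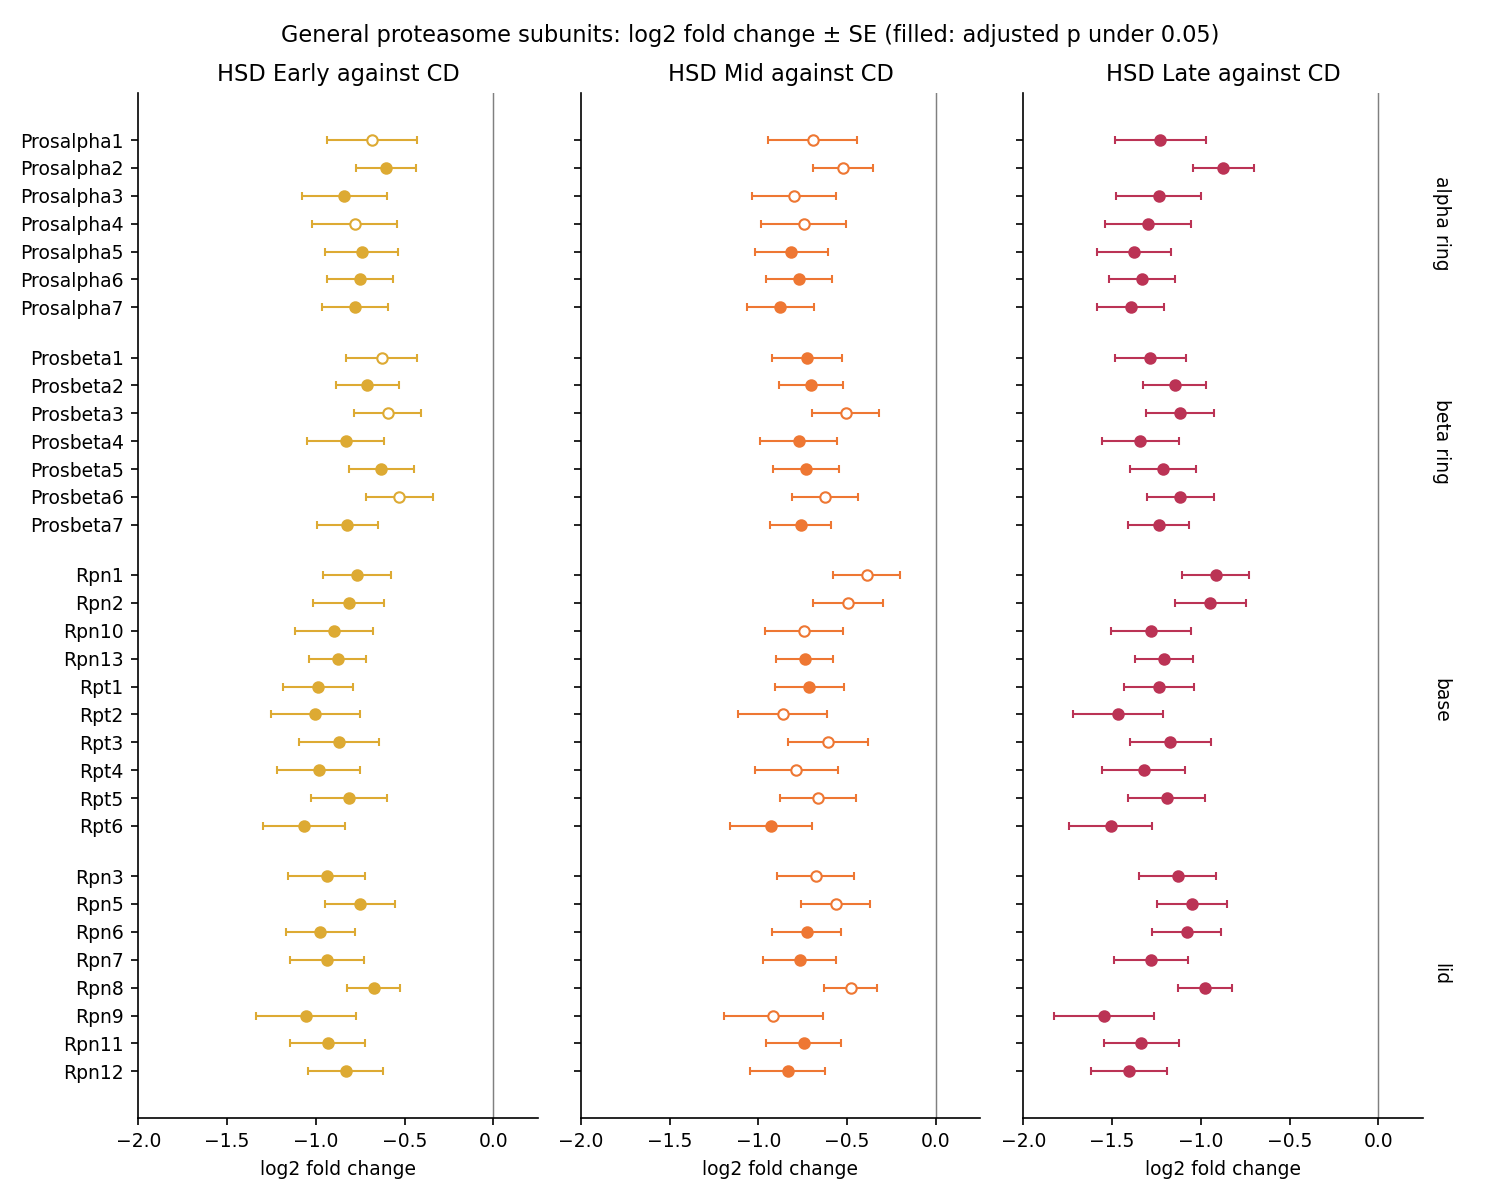
Log2 fold change with its standard error (edgeR) for each of the 32 general subunits at Early, Mid and Late against CD, by class, with filled points for an adjusted p-value under 0.05. All points lie below 0; at Late all are filled, from −1.54 (Rpn9) to −0.87 (Prosalpha2), and the open points at Early are 5 core particle genes, which DESeq2 called too.

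Between Early and Late, 6 of 32 general subunits fell further, all of the core particle, against 10.1% of all genes called lower and 10.1% called higher. They were Prosalpha5 (−0.64), Prosalpha6 (−0.58), Prosalpha7 (−0.62), Prosbeta1 (−0.65), Prosbeta5 (−0.58) and Prosbeta6 (−0.59), with edgeR adjusted p-values from 0.0305 to 0.0403. Of the 18 base and lid genes 0 passed in edgeR, 1 had an unadjusted p-value under 0.05, and DESeq2 called 1. Of the 14 core genes, 12 had an unadjusted p-value under 0.05, and whether the core and the regulatory particle differed in this change was not tested. The median log2 fold change was −0.54 in the alpha ring, −0.52 in the beta ring, −0.33 in the base and −0.32 in the lid, against −0.05 over all genes. The libraries of the stages did not overlap only for Prosbeta5, against 11.8% of all genes. The count was 0 without any one of Early 2, Early 3, Early 4, Late 2 or Late 3, and 1 without CD 4, Mid 3 or Late 1.

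The Early libraries also stood apart in the balance between the regulatory particle and the core. The mean log2 level of the base and lid minus that of the core particle, relative to CD, was 0.08, 0.03, −0.08 and −0.03 in CD 1 to 4. It was −0.28, −0.17, −0.18 and −0.17 in Early 1 to 4, below every other library. In Mid 1 to 4 it was −0.10, 0.15, −0.03 and 0.01, and in Late 1 to 4 0.08, 0.02, −0.10 and 0.01. The Early mean was −0.20 ± 0.05 (SD, n = 4), and the SD within CD was 0.07. These values were chosen with the calls at Early known and carry no test. Early was also the stage at which muscle and cuticle genes were highest and the 20 genes with the most counts took the largest share of a library, 21.6% on average against 16.0% in CD and 8.92% at Late, and their part in this balance was not tested.

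**Figure D4:**
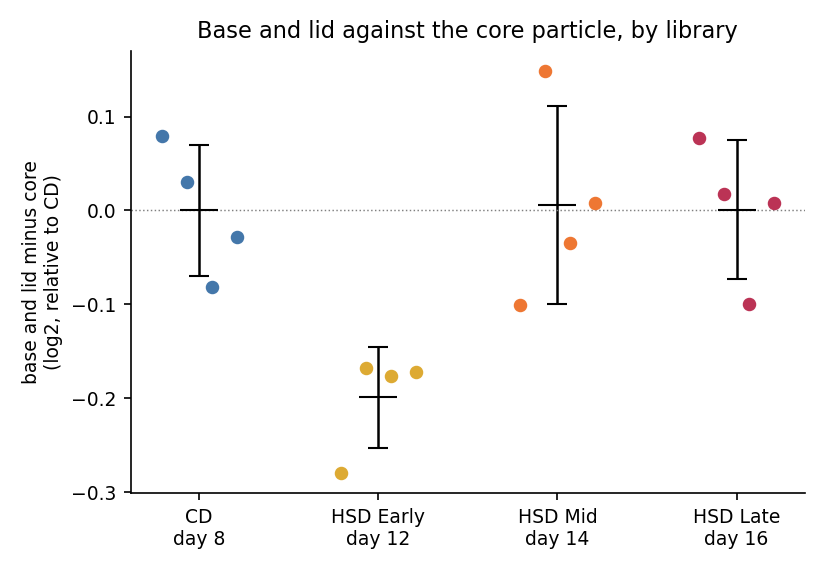
Mean log2 level of the 18 base and lid genes minus that of the 14 core particle genes, relative to CD, in each library (points), with the group mean and SD. The 4 Early libraries, from −0.28 to −0.17, lie below all others, and CD, Mid and Late overlap around 0.

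The general subunits also moved together within groups. After the group means were taken out, the correlation over 16 libraries between each gene and the mean of the other general subunits had a median of 0.962, and the highest was that of Prosbeta2, at 0.986. The lowest was 0.489, for Prosalpha1, for which the division of reads with its close copy Prosalpha1R is uncertain. Over the 11560 other genes tested, the median correlation with the general subunits was 0.00503, and 12.5% were above the lowest subunit. The points share libraries, depth and tissue content, so these values are descriptions. The 10 other genes with the most similar pattern were led by Pomp (r = 0.952), the chaperone that matures the beta ring, Uch-L5 (r = 0.950), the deubiquitinase bound by Rpn13 in other species, and Txl (r = 0.941), a thioredoxin-like protein. They also held Usp14 (r = 0.926), another deubiquitinase of the proteasome, Uch (r = 0.923), a ubiquitin hydrolase, and DnaJ-H (r = 0.926), a J-domain chaperone. The remaining genes were FBgn0040954 (r = 0.930), Cpr51A (r = 0.912), a cuticle protein, CG3223 (r = 0.894) and Sclp (r = 0.888). Pomp, Uch-L5 and Usp14 are also in the list of regulators described next.

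Of 11 tested genes that assemble, activate or serve the proteasome without being subunits by symbol, 7 fell and 1 rose at Late. In that comparison 7.7% of all genes were called lower and 14% higher. The median log2 fold change of the 11 genes was −1.16. Pomp was at 257, 392, 416 and 303 CPM in CD 1 to 4, 132, 243, 180.2 and 253 in Early 1 to 4, 153, 218, 231 and 161 in Mid 1 to 4 and 126, 84.8, 108 and 171 in Late 1 to 4. All CD libraries were above all others, and Late 2 was the lowest. Pomp fell at Late (log2 fold change −1.48, SE 0.26, edgeR adjusted p = 0.00133), and its change at Early was −0.76 and not called (adjusted p = 0.0734). Usp14 was at 415, 421, 489 and 408 CPM in CD 1 to 4, 155, 273, 219 and 318 in Early 1 to 4, 203, 321, 303 and 229 in Mid 1 to 4 and 199, 143, 169 and 240.1 in Late 1 to 4. It fell at Early (log2 fold change −0.84, SE 0.22, edgeR adjusted p = 0.0299) and at Late (−1.21). Uch-L5 was at 236, 299, 281 and 228 CPM in CD 1 to 4, 105, 188, 149.8 and 185 in Early 1 to 4, 142, 190.4, 193 and 144 in Mid 1 to 4 and 125, 91.6, 97 and 150.4 in Late 1 to 4. It likewise fell at Early (log2 fold change −0.73, SE 0.20, edgeR adjusted p = 0.0382) and at Late (−1.17). Both are deubiquitinases whose counterparts in other species dock on the base.

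The other genes of this list that fell at Late were the shuttle factors Rad23 (−0.85) and rngo (−1.16), which carry ubiquitinated proteins to the proteasome, and CG12321 (−1.17) and CG11885 (−1.33), listed as assembly factors. A further shuttle factor, Ubqn, rose at Late (log2 fold change 0.57, SE 0.14, edgeR adjusted p = 0.00843) and was also higher at Late than at Early (0.69). For PI31, an inhibitor of the core in vitro, the change at Late was −0.29, and for REG, the activator that opens the core without ATP, it was 0.11; neither passed. CG8858, the counterpart of an adaptor that controls proteasome location in yeast, had a value of −0.21 and was not called. At Early, Usp14 and Uch-L5 were the 2 genes of the list called in edgeR, with 8 lower at an unadjusted p-value under 0.05 and 8 called lower in DESeq2, and its median was −0.52. At Mid, 0 of 11 were called in edgeR, 8 had an unadjusted p-value under 0.05, and DESeq2 called 7. Of all genes tested, 2.7% were called lower at Early and 1.95% at Mid in edgeR. Between Early and Late, rngo (−0.66) and CG12321 (−0.60) fell, against 10.1% of all genes.

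Cap-n-collar, encoded by cnc, is the transcription factor known to raise proteasome subunit genes. The cnc transcript was at 871, 802, 430.3 and 760.3 CPM in CD 1 to 4, 405, 576, 673 and 521 in Early 1 to 4, 770.5, 824, 731 and 782 in Mid 1 to 4 and 615, 825, 874 and 762 in Late 1 to 4. The groups overlapped at every stage, and at Late the log2 fold change was 0.10 (SE 0.21, edgeR adjusted p = 0.727). Of the 7 genes tested in the list of cnc and its partners, rngo fell at Late and Hrd3, part of the complex that removes proteins from the endoplasmic reticulum, rose (0.71). The values for Keap1, which holds cnc inactive, were 0.21 at Early and 0.46 at Late, and for maf-S, its DNA-binding partner, −0.17 and −0.41, none of them called. Of 15 genes listed as targets of cnc in the oxidative stress response, 5 rose and 3 fell at Late, against 14% and 7.7% of all genes. GstE1, a glutathione transferase, rose at Early (0.53), at Mid (0.69) and at Late (log2 fold change 1.13, SE 0.15, edgeR adjusted p = 3.32e-04). Gclc, the catalytic subunit for glutathione synthesis, rose at Mid (0.76) and at Late (0.99). GstD5, another glutathione transferase, was at a mean of 0.290 CPM in CD and 24.1 at Late and was called higher at Mid and Late.

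The ubiquitin genes and enzymes act upstream of the proteasome. Their counts at Late stand beside 7.7% of all genes tested called lower and 14% called higher. Of 10 genes for ubiquitin, ubiquitin-like proteins and their activation, 2 fell at Late: Ubi-p5E, a polyubiquitin gene (log2 fold change −0.98, SE 0.23, edgeR adjusted p = 0.00701), and Nedd8, the ubiquitin-like modifier of cullin ligases (−0.90). At Early, RpL40, which encodes a ubiquitin fused to a ribosomal protein, rose (0.62). Of 15 conjugating enzymes (E2), 6 fell at Late, with a median of −0.40, among them Uev1A (−0.86), CG7656 (−0.91) and Ubc4 (−0.68). CG7656 also fell at Early (−0.72) and Mid (−0.66). Of 27 ubiquitin ligase genes (E3), 4 fell and 5 rose at Late, against 7.7% and 14% of all genes. With DESeq2 size factors these counts were 5 and 3, and with upper-quartile factors 6 and 2. Roc1a, the RING subunit of cullin ligases, fell at Mid (−0.67) and Late (−1.15), while Ufd4, which extends ubiquitin chains in yeast, rose at Late (log2 fold change 1.91, SE 0.32, edgeR adjusted p = 0.00112), as did mib1 (1.07), a ligase of Notch ligands. Of 7 genes of the segregase p97 and its cofactors, p47 fell (−0.75) and Hrd3 and Faf2 (0.64) rose at Late. The Late medians were −0.09 for the ubiquitin genes, 0.15 for the ligases and 0.16 for the p97 list, and those of the ligases and the p97 list changed sign with upper-quartile scaling.

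Other protein quality control genes moved in different directions. For comparison, 2.7% of all genes tested were called lower and 6.44% higher at Early, and 1.95% and 4.37% at Mid. At Late these shares were 7.7% and 14%, and between Early and Late 10.1% and 10.1%. Of 21 chaperone genes, 12 rose at Late in edgeR, against 14% of all genes, with a median of 0.75, and 8 rose at Mid. At Late 0 chaperones fell in edgeR, with 1 lower at an unadjusted p-value under 0.05 and 1 called lower in DESeq2. Hsp83, the fly Hsp90, rose from a mean of 1415 CPM in CD to 3820.0 at Late (log2 fold change 1.43, SE 0.19, edgeR adjusted p = 3.35e-04). The chaperonin subunits CCT6 (0.89) and CCT3 (0.75) rose at Late too. At Early, DnaJ-1, the co-chaperone of Hsp70, fell (−0.74), and 0 chaperones rose in edgeR, with 5 higher at an unadjusted p-value under 0.05 and 3 called higher in DESeq2. With DESeq2 size factors 12 chaperones rose at Late, and with upper-quartile scaling 11. Between Early and Late, 8 chaperones rose. Of 21 autophagy genes, 5 fell at Early and 2 at Mid, and 6 fell and 1 rose at Late, with a median of −0.36. Atg8a, the ubiquitin-like protein of the autophagosome membrane, fell at Late (−0.81), and Atg4a and Atg3, which process and attach it, fell at Early (−0.61 and −0.70), Mid (−0.45 and −0.55) and Late (−0.74 and −0.85). The COP9 signalosome and the translation factor eIF3 are built on the same PCI and MPN domains as the lid. Of 16 of their genes, 5 fell at Late, among them CSN8 (−0.99), CSN7 (−0.47) and eIF3k (−0.60), and the median was −0.06. At Early, eIF3m rose (0.67), and 0 of the 16 fell in edgeR, with 1 at an unadjusted p-value under 0.05 and a negative change and 1 in DESeq2. With upper-quartile scaling the median of all genes moved by −0.17 at Late, and the median of the general subunits relative to it was −1.17, against −1.16 with TMM.

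The 15 testis paralogues are second copies of subunit genes, several of which replace the general subunit during sperm formation. Their levels were low in this tissue, many with libraries at or near 0, while Rpt6R held 19 to 641 counts per library and Rpt3R 28 to 447. Per kilobase, their median level was 3.13 CPM in CD and 0.971 at Late. Their summed level was 104, 104, 92.7 and 34.0 CPM in CD 1 to 4, 7.13, 116, 21.9 and 72.9 in Early 1 to 4, 43.0, 48.5, 24.2 and 14.2 in Mid 1 to 4 and 22.9, 21.9, 15.9 and 66.9 in Late 1 to 4. The lowest and the highest of all 16 libraries were both of the Early group. A list of testis genes such as aly and dj, of which 54 of 57 were matched and 1 was at 0 in every library, had a summed level of 1178, 896, 637 and 294 CPM in CD 1 to 4. It was 88.7, 1915, 166 and 711 in Early 1 to 4, 606, 318, 149.6 and 88.3 in Mid 1 to 4 and 71.0, 228, 60.8 and 884 in Late 1 to 4. Libraries with a high summed paralogue level (CD 1, CD 2, CD 3, Early 2, Early 4, Late 4) also held much RNA of the testis list. The part of that list in the paralogues' values was not tested. The level of roX1, an RNA made in males, ran from 17.1 CPM in Early 1 to 1850.3 in Mid 1.

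In edgeR, 0 of 15 paralogues were called at Early, 0 at Mid and 0 between Early and Late, with 1, 0 and 1 at an unadjusted p-value under 0.05 and 1, 0 and 0 called in DESeq2. At Late 1 of 15 was called, against 7.7% of all genes called lower: Prosalpha1R (FBgn0050382), a close copy of Prosalpha1. The division of reads between this pair is uncertain. Prosalpha1R was at 6.98, 12.8, 5.10 and 6.37 CPM in CD 1 to 4, 2.60, 1.09, 1.94 and 0.524 in Early 1 to 4, 1.54, 5.52, 4.48 and 0.427 in Mid 1 to 4 and 3.54, 0.560, 0.777 and 0.801 in Late 1 to 4. It fell at Late (log2 fold change −2.46, SE 0.80, edgeR adjusted p = 0.0393), with Late 1 above the other Late libraries, and the call was lost without any one of CD 1, CD 2, Late 2, Late 3 or Late 4. The library values came from 8 to 272 counts. Prosalpha1R did not follow the testis list in every library. It was at 1.09 CPM in Early 2, where that list was highest, and at 3.54 in Late 1, where that list was near its lowest. CD 1 and CD 2 were high in both. Rpt6R and Rpt3R were the highest paralogues per kilobase, at 10.3 and 7.03 CPM per kilobase over all groups. Rpt6R, a copy of an ATPase gene, was at 21.2, 29.2, 27.5 and 11.3 CPM in CD 1 to 4, 1.15, 28.0, 7.05 and 25.8 in Early 1 to 4, 8.16, 17.5, 8.58 and 7.37 in Mid 1 to 4 and 11.6, 8.03, 8.19 and 16.8 in Late 1 to 4. Rpt3R, likewise of the ATPase family, was at 22.6, 21.1, 16.9 and 5.22 CPM in CD 1 to 4, 1.69, 12.1, 6.98 and 11.7 in Early 1 to 4, 8.73, 12.9, 8.12 and 5.48 in Mid 1 to 4 and 6.76, 6.03, 5.08 and 12.0 in Late 1 to 4. Both were detected in all libraries, Early 1 and Late 3 included, where the testis list was near its lowest. At Late their log2 fold changes were −1.0 (SE 0.66) and −1.14 (SE 0.54), not called.

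The other 12 paralogues, grouped after these values were seen, had a summed level of 53.4, 41.3, 43.2 and 11.1 CPM in CD 1 to 4, 1.69, 75.2, 5.95 and 34.8 in Early 1 to 4, 24.6, 12.5, 3.01 and 0.961 in Mid 1 to 4 and 1.08, 7.28, 1.88 and 37.4 in Late 1 to 4. Early 2 was the highest library and Mid 4 the lowest. A value of 0 allows a level of up to the equivalent of 3 counts, which was 0.0890 CPM in Late 4 to 0.289 in CD 3, for counting error only. Among copies of alpha ring genes, Prosalpha6T, which is needed for male fertility, was at 4.30, 4.25, 3.56 and 1.76 CPM in CD 1 to 4, 0, 8.14, 0 and 4.39 in Early 1 to 4, 2.07, 0.255, 0.0752 and 0 in Mid 1 to 4 and 0, 0.494, 0 and 4.27 in Late 1 to 4. It was at 0 in 5 of 16 libraries and above 4 CPM in 5. Prosalpha4T2 was at 5.21, 3.07, 1.73 and 1.02 CPM in CD 1 to 4, 0.302, 7.44, 0.388 and 3.02 in Early 1 to 4, 2.60, 1.32, 0.451 and 0.107 in Mid 1 to 4 and 0.145, 0.494, 0.583 and 3.65 in Late 1 to 4. Prosalpha3T was at 2.07, 1.23, 1.35 and 0.136 CPM in CD 1 to 4, 0.0604, 3.63, 0 and 0.918 in Early 1 to 4, 0.750, 0.382, 0 and 0 in Mid 1 to 4 and 0, 0.296, 0 and 1.81 in Late 1 to 4, and 5 libraries were at 0. In all 3 alpha copies the single highest library was Early 2.

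The copies of beta ring genes come in pairs. Prosbeta2R1 was at 4.75, 3.25, 5.01 and 0.407 CPM in CD 1 to 4, 0, 4.68, 0.840 and 3.34 in Early 1 to 4, 1.90, 0.552, 0.451 and 0.0712 in Mid 1 to 4 and 0, 0.296, 0 and 2.76 in Late 1 to 4. Prosbeta2R2 was at 6.83, 5.80, 6.84 and 1.22 CPM in CD 1 to 4, 0.0604, 6.87, 0.259 and 4.59 in Early 1 to 4, 3.13, 1.83, 0.301 and 0.107 in Mid 1 to 4 and 0.181, 1.78, 0.194 and 4.81 in Late 1 to 4. Both copy the gene of the trypsin-like site, and in both CD 4 was far below CD 1 to 3. Prosbeta4R1 was at 3.39, 3.11, 3.85 and 1.49 CPM in CD 1 to 4, 0, 4.81, 0 and 1.77 in Early 1 to 4, 1.32, 1.32, 0 and 0 in Mid 1 to 4 and 0, 0.296, 0 and 2.37 in Late 1 to 4. Prosbeta4R2 was at 3.59, 4.81, 6.16 and 2.17 CPM in CD 1 to 4, 0.846, 11.9, 2.39 and 5.24 in Early 1 to 4, 3.75, 1.49, 0.790 and 0.178 in Mid 1 to 4 and 0.686, 1.28, 0.842 and 2.82 in Late 1 to 4. Unlike Prosbeta4R1, Prosbeta4R2 was above 0 in all libraries; 69 of its 1647 exon bases are shared with Or23a on the same strand, an odorant receptor gene with 106 counts in all. Prosbeta5R1 was at 5.31, 1.98, 0.674 and 0.407 CPM in CD 1 to 4, 0, 9.19, 0.194 and 3.61 in Early 1 to 4, 2.43, 1.44, 0.0752 and 0.0712 in Mid 1 to 4 and 0, 0.527, 0 and 3.98 in Late 1 to 4. Prosbeta5R2 was at 4.20, 2.69, 2.41 and 0.678 CPM in CD 1 to 4, 0.121, 5.38, 0.711 and 3.28 in Early 1 to 4, 1.46, 0.425, 0.113 and 0 in Mid 1 to 4 and 0, 0.560, 0 and 2.49 in Late 1 to 4. Both copy the gene of the chymotrypsin-like site and were at 0 in Late 1 and Late 3.

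Among copies of regulatory particle genes, Rpt4R, a copy of an ATPase gene, was at 6.73, 5.90, 5.88 and 1.15 CPM in CD 1 to 4, 0, 2.93, 0.259 and 2.29 in Early 1 to 4, 1.90, 0.976, 0.226 and 0 in Mid 1 to 4 and 0, 0.296, 0 and 3.0 in Late 1 to 4. Rpn12R, the copy of a lid gene, was at 4.50, 2.97, 3.76 and 0.542 CPM in CD 1 to 4, 0, 5.73, 0.259 and 1.51 in Early 1 to 4, 1.37, 1.78, 0.0376 and 0 in Mid 1 to 4 and 0, 0.329, 0 and 4.15 in Late 1 to 4. Rpn13R, the copy of a ubiquitin receptor gene, was at 2.53, 2.26, 2.02 and 0.136 CPM in CD 1 to 4, 0.302, 4.51, 0.646 and 0.852 in Early 1 to 4, 1.90, 0.722, 0.489 and 0.427 in Mid 1 to 4 and 0.0723, 0.626, 0.259 and 1.25 in Late 1 to 4. In each of these, CD 1 to 3 exceeded CD 4, and Late 4 exceeded the other Late libraries. Over the 15 paralogues, the log2 fold changes at Late ran from −2.57 (Rpt4R) to −0.89 (Prosbeta5R1), with a median of −1.57 and SEs of 0.54 to 1.93. For comparison, the SEs of the general subunits ran from 0.15 to 0.28.

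**Figure D5:**
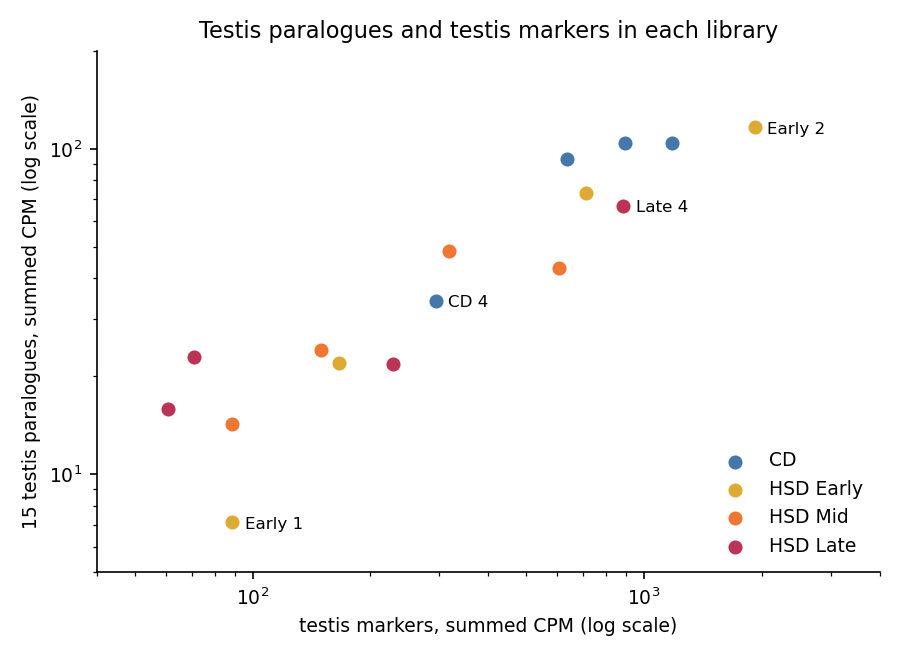
Summed level of the 15 testis paralogues (vertical axis, CPM, log scale) against that of the testis gene list (horizontal axis, CPM, log scale) in each of the 16 libraries, coloured by group. Libraries of 1 group lie far apart, from 7.13 CPM in Early 1 to 116 in Early 2 for the paralogues, and the libraries highest in testis RNA are also high in paralogue RNA.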

How the data were processed

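RNA of pooled body-wall muscle was sequenced as stranded, paired mRNA libraries, 4 for each of CD, Early, Mid and Late, and samples were grouped by their titles. Per the labels and the study's methods, the authors used CASAVA 1.8.4, trimmed reads with Trim Galore, aligned them to dm3 with TopHat2 2.0.11 and counted them per gene with featureCounts. The deposited values are raw counts, with no normalization. The strand setting and annotation release are not given in the sources used here. Totals ran from 9666672 to 28698585 counts per library, and the spread between libraries set the precision. Of 15682 identifiers, 15002 had a symbol in an Ensembl annotation of dm6, which also gave exon lengths, so no positions are printed. No promoter or protein sequence was used here.

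Tests were run in edgeR 4.0.16 (R 4.3.3, limma 3.58.1) on the 11607 genes kept by filterByExpr (minimum count 10, minimum total 15), with TMM scaling and a quasi-likelihood model of the 4 conditions over all 16 libraries. Benjamini-Hochberg adjustment covered every gene in the test, and the threshold was 0.05. CPM values use TMM-scaled library sizes, and levels on the log2 scale use a pseudocount of 0.5. No test was run over a list. The steps were tested on simulated counts. Alternatives were DESeq2 size factors, upper-quartile factors, no filter on counts, a filter at a mean of 10 CPM, all genes but the 20 most abundant, the DESeq2 1.42.0 Wald test, a fit of only the 8 libraries compared, a block for the replicate number, a testis covariate, thinning to the lowest total and leaving out each library.

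The members and gene lists were chosen with earlier results of these data known. Values in every library are printed for the 3 general subunits with the lowest p-value in each comparison, the lowest of each class, the highest and lowest by level per kilobase, and all paralogues. From the other lists, up to 3 called genes with the lowest p-values in each comparison were eligible to be named, and regulators of the proteasome and of cnc were named beyond this rule after their values were seen. The 10 most similar genes were chosen by residual correlation.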

Additional observations from a re-analysis of the deposited data

Results flagged for a closer look

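Among 100 sets of 4 libraries (a gene or sum in 1 group), 15 had a library whose gap to the nearest other exceeded the limit that chance passes in about 1 of 20 sets. All 15 were of testis paralogues or their sum. The 100 sets were too few to hold every general subunit in every group, so they do not show that none of those genes had such a library. Library Late 4 stood above the other Late libraries for Prosbeta2R1 (2.76 CPM), Prosalpha3T (1.81), Prosalpha4T2 (3.65), Prosbeta4R1 (2.37), Prosbeta5R1 (3.98), Prosalpha6T (4.27), Rpn12R (4.15) and Rpt4R (3.0), and for the summed paralogues (66.9 CPM). Its testis list, at 884 CPM, was also the highest of Late, and the part of testis RNA in these values was not tested. The other single libraries were Prosalpha1R in Late 1 (3.54 CPM), Prosalpha6T in Mid 1 (2.07), Rpn13R in Early 2 (4.51), Rpt6R in Mid 2 (17.5), Rpt4R in CD 4 (1.15) and the summed paralogues in CD 4 (34.0), the last 2 being low.

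The change relative to CD differed between Early and Late for 6 of 32 general subunits, all of the core particle, against 10.1% of all genes called lower. This is the comparison of Late with Early described above, not a separate result, and its calls depended on single libraries and on the setting. The log2 values of Late against Early were −0.64 for Prosalpha5, −0.58 for Prosalpha6, −0.62 for Prosalpha7, −0.65 for Prosbeta1, −0.58 for Prosbeta5 and −0.59 for Prosbeta6 (edgeR adjusted p from 0.0305 to 0.0403).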

How the results depend on the processing

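All 32 general subunits were called lower at Late under every alternative run, and every general subunit kept a negative log2 fold change in every comparison and setting except Rpn6 between Early and Late, at 0.01 without Early 4. The calls at Early (27), at Mid (15) and between Early and Late (6) depended on the setting. With only the 8 libraries of a comparison, 7 were called at Early, 1 at Mid and 0 between Early and Late. With the DESeq2 Wald test, 32 were called at Early, 31 at Mid and 10 between Early and Late, without a filter 9 at Mid and 1 between those stages, and with the testis covariate 0 and 0. A filter at a mean of 10 CPM gave 26 at Mid. Leaving out 1 library gave 7 to 30 calls at Early, 0 to 22 at Mid and 0 to 8 between Early and Late. The medians then ran from −1.0 to −0.70 at Early, −0.81 to −0.62 at Mid, −1.34 to −1.15 at Late and −0.55 to −0.29 between Early and Late. Of the paralogues, 1 was called at Early with DESeq2 and 1 with thinned counts, 0 at Late with the filter at 10 CPM, and 0 to 1 at Late without 1 library.

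Of all genes tested, 2.7% were called lower and 6.44% higher at Early, and 1.95% and 4.37% at Mid. At Late these shares were 7.7% and 14%, and between Early and Late 10.1% and 10.1%. Over the 144 genes of the other lists, 15 were called in either direction at Early, 19 at Mid, 59 at Late and 37 between Early and Late. DESeq2 called 36, 44 and 57 at Early, at Mid and between Early and Late, the 8 libraries alone 6 at Early and 7 at Mid, the filter at 10 CPM 34 at Mid and the testis covariate 1 at Mid. Without 1 library the counts ran from 3 to 15 at Early (5 without CD 2, 3 without Early 1), 0 to 28 at Mid (1 without CD 2 or Mid 1, 4 without CD 3, 0 without Mid 4), 41 to 65 at Late and 20 to 40 between Early and Late. Of all genes called at Late, 64.5% were higher with TMM, 54.8% with DESeq2 size factors and 47.3% with upper-quartile factors, and at Mid 69.2%, 60.1% and 55%. The causes were not tested.

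The deviations of libraries with the same replicate number had a mean correlation of −0.00676 over 24 pairs, and 0.0016 over the 72 other pairs. Of the 16 libraries, 6 were most like a library of their own number. The labels do not say what the numbers stand for, and these values cannot tell whether they mark a shared batch. With the replicate number as a block, 23 general subunits were called at Early, 4 at Mid, 32 at Late and 0 between Early and Late, and 9 list genes at Early and 8 at Mid.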

Other observations

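Further list genes that passed the test changed at other stages or between Early and Late. At Mid, stv, the Hsp70 co-chaperone that handles filamin in muscle, rose from a mean of 168 CPM in CD to 362 (log2 fold change 1.11, SE 0.23, edgeR adjusted p = 0.0166). Droj2, another Hsp70 co-chaperone, also rose at Mid (0.55), as did mib1 (0.73). At Early, the ubiquitin ligase gene Ubr1 fell (−0.72), with the p97 cofactor p47 (−0.44) and the autophagy gene Atg2 (−0.60). Between Early and Late, Atg1, the kinase that starts autophagy, rose from 39.0 to 82.2 CPM (1.07), and Sod1, a superoxide dismutase, fell from 481 to 232 CPM (−1.05). In the same comparison the ubiquitin fusions RpL40 (−0.52) and RpS27A (−0.61) fell, as did the cullin ligase subunit Roc2 (−1.0), while Su(dx), a ligase of Notch, rose (0.71).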
